A study of Mus musculus with 6 samples.

Results

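The 8 genes described here encode the hypoxia-inducible factors (HIFs) and the proteins that act on them directly in response to oxygen and iron. They are the alpha subunits Hif1a and Epas1, the beta subunit Arnt, the prolyl hydroxylases Egln1, Egln2 and Egln3, the ubiquitin ligase receptor Vhl and the asparaginyl hydroxylase Hif1an. They were taken by name as the core of this pathway, and all 8 were found among the 39179 genes of the deposited table. RNA was sequenced from liver endothelial cells of wild-type 129S6/SvEvTac male mice that were put on a purified diet at 3 weeks of age, kept on it for 4 weeks and sampled at 7 weeks. The control_iron group received 37 ppm iron as ferric citrate and the high_iron group 10000 ppm iron as carbonyl iron, so the diets differ in the iron compound as well as in its amount. Each group had 3 biological replicates, and the sort kept cells with CD31 and CD146 on their surface and without CD45, lineage markers, MHC class II or CD64. How many mice gave the cells of 1 replicate is not stated in the sources used here.

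In cells with enough oxygen and iron, the prolyl hydroxylases add a hydroxyl group to the HIF alpha subunits, VHL binds the modified subunit, and it is ubiquitinated and degraded. These enzymes hold ferrous iron at their active site and use 2-oxoglutarate as a cosubstrate. When oxygen or iron runs short the alpha subunits persist, pair with ARNT and switch on genes of glycolysis, blood vessel growth and iron handling. Epas1, which encodes HIF-2 alpha, takes its name (endothelial PAS domain protein) from its high expression in endothelium. These regulatory steps act on proteins, whereas the values below are transcript levels.

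A second link to iron runs through the Epas1 transcript itself. Its 5' untranslated region is known to hold an iron-responsive element, a hairpin to which iron regulatory proteins bind when iron is scarce, which lowers translation. The hairpin is shown because it is the iron-sensing sequence within these genes. It was found on GRCm38 at chr17:86753768-86753797 on the plus strand, in the 5' untranslated region of Epas1, and is read 5' to 3' from GENCODE M21, with the loop in capitals:
Epas1 hairpin: tacaatcctcggCAGTGTcctgagactgta
The search asked for an unpaired C, 5 bases, the loop CAGTGN and 5 bases that pair with the first 5, G-U pairs included and at most 1 unpaired base on the 3' side. Of 21200 genes with an annotated 5' untranslated region, 82 held a match (0.387%), and of the 8 genes Epas1 was the one that did.

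Upstream sequence is shown for 2 prolyl hydroxylase genes, Egln3, the member with the largest difference between diets, and Egln2, whose level differed little. Each is the 250 bases before the RefSeq start, on GRCm38.p6 and the minus strand, read 5' to 3'. Capitals mark the letters ACGTG and GCGTG, searched on both strands with overlapping matches counted, which are the core of the HIF binding motif. The Egln3 window is chr12:54203875-54204124 and the Egln2 window chr7:27166803-27167052.
Egln3 upstream: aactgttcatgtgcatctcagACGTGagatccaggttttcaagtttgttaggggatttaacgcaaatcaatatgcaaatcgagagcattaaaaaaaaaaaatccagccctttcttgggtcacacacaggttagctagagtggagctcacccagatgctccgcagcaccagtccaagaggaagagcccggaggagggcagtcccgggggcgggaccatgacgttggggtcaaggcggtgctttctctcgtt
Egln2 upstream: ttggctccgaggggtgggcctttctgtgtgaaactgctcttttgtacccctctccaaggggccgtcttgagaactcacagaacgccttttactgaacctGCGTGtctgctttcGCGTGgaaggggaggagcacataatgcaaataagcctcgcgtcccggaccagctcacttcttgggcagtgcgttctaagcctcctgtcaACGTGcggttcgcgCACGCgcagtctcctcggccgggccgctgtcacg
The Egln3 window held 1 match, ACGTG, whose first base lies 229 bases before the start. The Egln2 window held 4, at 151, 137, 48 and 34 bases before the start. In windows of the same length Egln1 held 2, Arnt 1, and Vhl and Hif1an 0. The Hif1a window, chr12:73907617-73907866, held 3 and lies inside the gene as GENCODE M21 annotates it, not at its first base. Of these 3 matches, 2 overlap, at 135 and 134 bases before the start, and are the letters CACGTG read on each strand. A second RefSeq start of Egln2, with the window chr7:27165729-27165978, held 1. Either core was present in 38.6% of 32851 such windows of all genes, and 2 or more in 16.7%. A match describes letters and is not a measured binding site. Promoter sequences were found for 7 of the 8 genes, all but Epas1.

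Libraries held 12963510 to 21663543 reads in genes. Levels are given as CPM, reads relative to a scaled library size, and a floor of 3 reads corresponds to 0.139 to 0.231 CPM, counting error only. Endothelial identity was checked with 10 markers, among them Pecam1, Kdr, Stab2 and Lyve1, which summed to 19232 to 21044 CPM in control libraries and 18213 to 18951 CPM in high-iron libraries. The 13 Kupffer cell and macrophage markers, none of them at 0, summed to 74.1, 174 and 91.9 CPM in control replicates 1 to 3 and to 505, 254 and 351 CPM in high-iron replicates 1 to 3. Hepatocyte markers summed to 199 to 788 and 456 to 848 CPM, and lymphocyte and pan-leukocyte markers to 2.93 to 7.52 and 12.3 to 20.7 CPM, in control and high-iron libraries. Erythroid markers summed to 1160, 3791 and 1466 CPM in control replicates 1 to 3 and to 1240, 4737 and 832 CPM in high-iron replicates 1 to 3. For stellate cell and fibroblast markers the sums were 136, 1038 and 532 CPM in controls and 218, 961 and 586 CPM on high iron. In bulk samples, fewer cells of a type and less RNA per cell cannot be told apart.

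Across genes, levels can be compared only per length, as RPKM (CPM per kilobase of gene length). Epas1 stood above the other 7 genes in all 6 libraries, with a mean of 99.3 RPKM and a range of 80.8 to 146 RPKM. Egln1 followed with 29.9 ± 4.46 (mean ± SD, n = 6), Egln2 with 26.6 ± 2.51 and Hif1a with 22.5 ± 3.47 RPKM. The ranges of these neighbours overlapped: Egln1 was above Egln2 in 4 of 6 libraries, and Egln2 above Hif1a in 5 of 6. Arnt had 12.1 ± 1.25, Vhl 8.67 ± 1.04 and Hif1an 6.66 ± 0.945 RPKM. The ranges of Vhl and Hif1an overlapped as well, although Vhl was the higher of the pair in each of the 6 libraries. Egln3 was lowest by far, with 0.176 to 1.39 RPKM. Read against the 12980 genes that passed the filter for testing, 96.2% had a lower mean RPKM than Epas1, 79.8% a lower one than Hif1a and 9.53% a lower one than Egln3. Endothelial cells of these livers therefore held far more Epas1 than Hif1a transcript, and the Egln1 and Egln2 transcripts at similar levels.

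**Figure D1:**
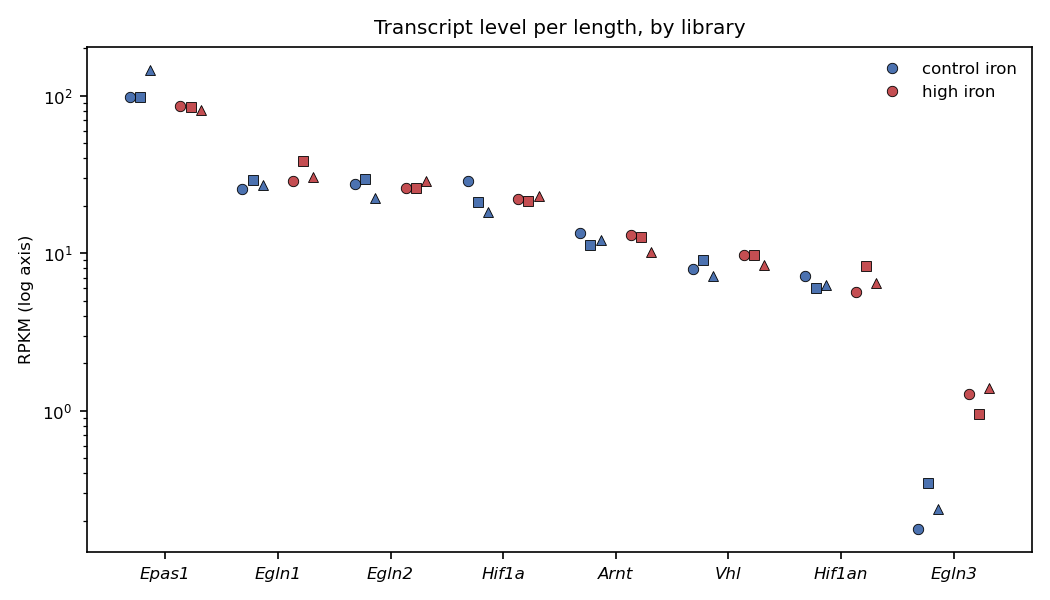
Transcript level of the 8 genes in RPKM on a log axis, in order of their mean over 6 libraries. Blue points are control-iron and red points high-iron libraries, with circles, squares and triangles for replicates 1, 2 and 3; Epas1 lies between 80.8 and 146 RPKM and Egln3 between 0.176 and 1.39.

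The diets were compared with limma on log2(CPM + 1), two-sided, with Benjamini-Hochberg adjustment over all 12980 genes tested and a threshold of 0.05. Of the 8 genes, 1 rose on high iron (Egln3) and 0 fell. Over all genes tested, 1.02% were called, 0.832% higher and 0.193% lower. The median log2 fold change of the 8 genes was 0.04, and that of all genes -0.003. An unadjusted p under 0.05 was reached by 2 of the 8, Egln3 and Epas1, and by 1572 of the 12980 genes tested (12.1%). The libraries of the diets did not overlap for 1 gene that was higher (Egln3) and 1 that was lower (Epas1). Among all genes tested, 9.46% were higher and 8.44% lower without overlap. The p-values set the difference between diets against the spread between these biological replicates.

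**Figure D2:**
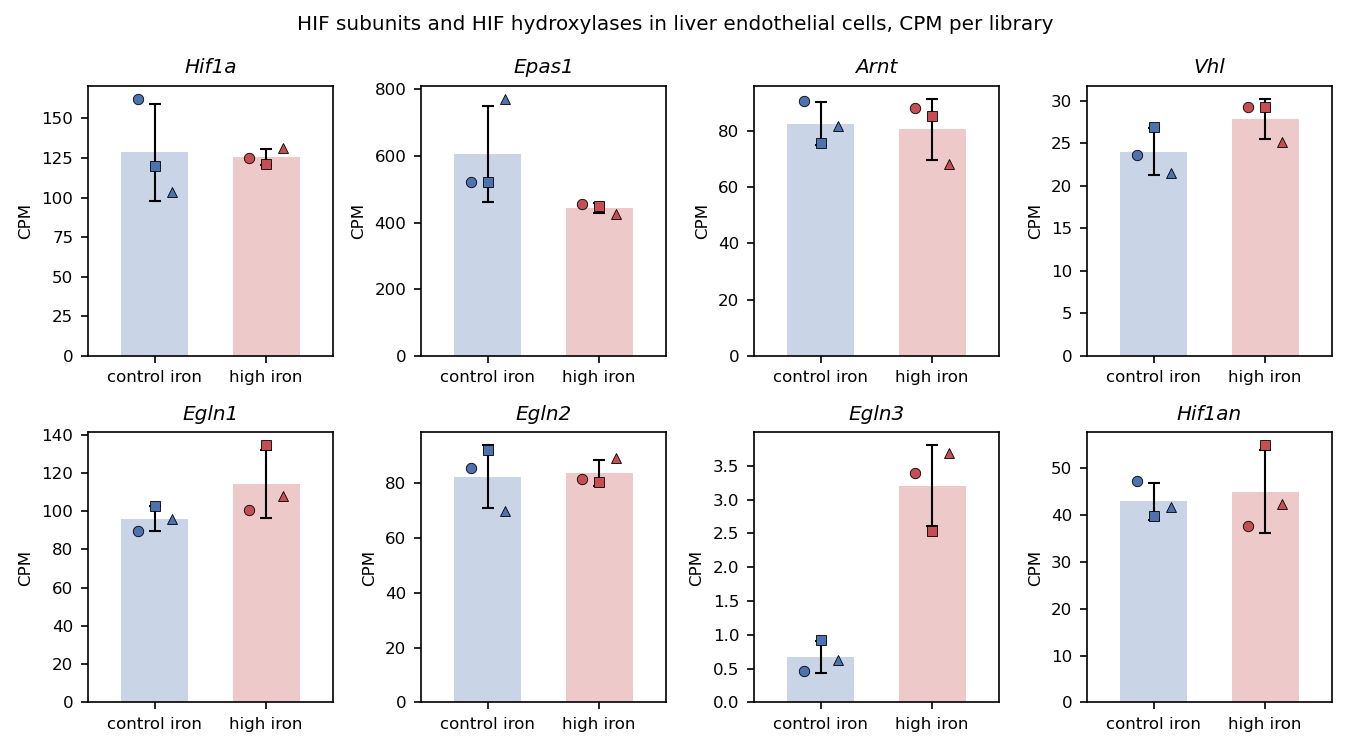
CPM of each gene in every library, each panel with its own axis from 0. Bars are group means, lines are SD (n = 3), and circles, squares and triangles are replicates 1, 2 and 3; the diets do not overlap for Egln3 and Epas1, and overlap for the other 6 genes.

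Among the alpha subunits, Hif1a, the subunit present in most cell types, had 162, 120 and 103 CPM in control replicates 1 to 3 and 125, 121 and 131 CPM in high-iron replicates 1 to 3. The high-iron libraries lie inside the range of the controls, in which replicate 1 is highest. Its log2 fold change was -0.01 ± 0.17 (SE), with a 95% interval of -0.38 to 0.37 (limma adjusted p = 0.991). The gene lies on GRCm38 at chr12:73901375-73947530, plus strand, and 5.6% of its exon bases overlap the opposite-strand gene Gm15283, which reached at most 0.987 CPM in any library.

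Epas1, at chr17:86753700-86833410 on the plus strand, had 522, 523 and 772 CPM in the control libraries and 456, 452 and 428 CPM in the high-iron libraries. Every high-iron library lies below every control, and control replicate 3 stands well above the other controls. The means were 606 ± 144 and 445 ± 15.3 CPM (SD, n = 3 each). The log2 fold change was -0.42 ± 0.17 (SE), with a 95% interval of -0.80 to -0.04. It did not pass the threshold (limma adjusted p = 0.369). Without control replicate 3 it was -0.23 (adjusted p = 0.655), and over 22 alternative analyses the adjusted p ran from 0.152 to 0.794.

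Because the alpha subunits compete for the same partner, the share of Epas1 in the sum of both was taken per length. It was 77.4%, 82.3% and 88.8% in the control libraries and 79.6%, 79.9% and 77.7% in the high-iron libraries. The groups overlap, with the controls spread more widely. The difference of -3.82 percentage points was within the replicate spread (two-sided exact permutation test, p = 0.4, smallest possible 0.1). The summed alpha subunits reached 127, 120 and 164 RPKM in controls and 108, 107 and 104 RPKM on high iron.

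Arnt, the beta subunit shared by both HIFs, had 90.6, 75.6 and 81.6 CPM in controls and 88.3, 85.2 and 68.2 CPM on high iron. The groups overlap, with high-iron replicate 3 lowest, and the log2 fold change was -0.04 ± 0.15 (SE; limma adjusted p = 0.925). On GRCm38 it lies at chr3:95434388-95497240, plus strand. Vhl, at chr6:113623959-113631633 on the plus strand, recognises hydroxylated alpha subunits. It had 23.6, 26.9 and 21.5 CPM in controls and 29.2, 29.2 and 25.1 CPM on high iron. High-iron replicate 3 lies below control replicate 2, and the log2 fold change of 0.21 ± 0.16 (SE) did not pass the threshold (limma adjusted p = 0.616). Hif1an, at chr19:44562850-44576274 on the plus strand, encodes FIH, which hydroxylates an asparagine of the alpha subunits and thereby blocks their binding to coactivators. It had 47.3, 39.8 and 41.7 CPM in controls and 37.7, 54.8 and 42.4 CPM on high iron, with both the lowest and the highest value among the high-iron libraries. Its log2 fold change was 0.05 ± 0.17 (SE; limma adjusted p = 0.919).

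Egln1 encodes PHD2, the main oxygen sensor of most cells, and lies at chr8:124908587-124949324 on the minus strand. It had 89.5, 103 and 95.7 CPM in controls and 100, 134 and 108 CPM in high-iron libraries. High-iron replicate 2 is the highest and the other high-iron libraries lie close to the controls. The log2 fold change was 0.24 ± 0.15 (SE), with a 95% interval of -0.09 to 0.56 (limma adjusted p = 0.533). Egln2, at chr7:27158658-27166802 on the minus strand, encodes PHD1. It had 85.4, 91.9 and 69.7 CPM in controls and 81.4, 80.5 and 89.1 CPM on high iron. The high-iron values lie within the range of the controls, and the log2 fold change was 0.03 ± 0.14 (SE; limma adjusted p = 0.943).

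Egln3 encodes PHD3, itself known as a gene that HIFs induce. It lies at chr12:54178981-54203860 on the minus strand of GRCm38. It had 0.468, 0.929 and 0.626 CPM in control replicates 1 to 3, from 9, 20 and 11 reads, and 3.39, 2.53 and 3.69 CPM in high-iron replicates 1 to 3, from 66, 43 and 48 reads. Every high-iron library is above every control, and all are far below those of the other 7 genes. The means were 0.674 ± 0.234 and 3.20 ± 0.599 CPM (SD, n = 3 each), a ratio of 4.75. The log2 fold change was 1.33 ± 0.24 (SE), with a 95% interval of 0.78 to 1.87 (limma adjusted p = 0.0399). On the log2(CPM + 1) scale that is a fold of 2.51, which understates the change of so low a gene.

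The Egln3 result rests on few reads. All 3 controls are under the filter of 1 CPM, so the gene was tested only because it was higher on high iron. Its adjusted p was 0.110 with no filter and 0.0420 with a filter on the mean over all 6 libraries. Egln3 passed that filter, too, only through its high-iron libraries (means 0.674 and 3.20 CPM), so the second value is not independent support. On the recovered reads it was 0.0488 with edgeR (log2 fold change 2.22) and 0.00152 with DESeq2 (2.24). Both were run on the genes of the main filter, so these values are not independent support either. The call was lost when any 1 library was left out. With the tested genes held fixed, the limma adjusted p was 0.0575, 0.0697 and 0.102 without control replicates 1 to 3, and 0.125, 0.117 and 0.223 without high-iron replicates 1 to 3. The summed macrophage markers given above were also higher in every high-iron library than in every control. Within each diet, control replicate 2 had the most and high-iron replicate 2 the least of both Egln3 and those markers. Their part in the result was not tested.

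**Figure D3:**
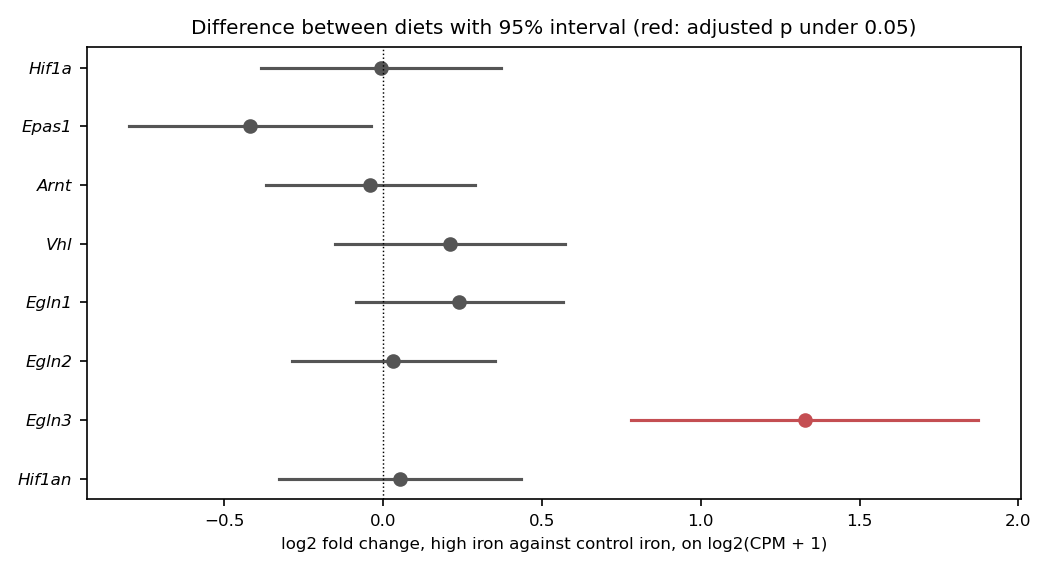
Log2 fold change of high iron against control iron on log2(CPM + 1), with the 95% interval from limma, for each of the 8 genes. Egln3 (1.33) is the gene whose adjusted p is under 0.05, the interval of Epas1 (-0.80 to -0.04) lies below 0 without passing the adjusted threshold, and the other 6 intervals include 0.

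Among the 3 prolyl hydroxylases, Egln3 made up 0.331%, 0.592% and 0.473% of the transcripts per length in controls and 2.28%, 1.47% and 2.29% on high iron. Each high-iron value is above each control, with a difference of 1.55 percentage points (two-sided exact permutation test, p = 0.1, the smallest possible for 3 against 3 libraries). The shares use the same Egln3 reads as above, for which the diets already did not overlap. They restate that difference and are no further support for it. The Egln1 share was 48.0%, 49.5% and 54.7% in controls and 51.1%, 58.8% and 50.6% on high iron, which overlap (exact permutation p = 0.5). Egln1 and Egln2 thus supplied nearly all prolyl hydroxylase transcripts on both diets. The 3 hydroxylases summed to 53.1, 59.1 and 49.9 RPKM in controls and to 56.0, 65.1 and 60.7 RPKM on high iron. The ratio of that sum to the alpha subunits, chosen after the values were seen and given with no test, was 0.417, 0.492 and 0.304 in controls and 0.517, 0.610 and 0.583 on high iron.

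Genes whose pattern over the 6 libraries was most like a member were ranked by the root mean square difference of mean-centred log2(CPM + 1). For Epas1 these were Hilpda (0.03), Dusp10 (0.03) and Wasf2 (0.04), against a median of 0.34 over 9473 genes. For Hif1a they were Eogt (0.04), Zmynd19 (0.04) and Timeless (0.05), against a median of 0.27. For Egln3 they were Alox12 (0.17), Fuca2 (0.18) and Plxdc1 (0.19), against a median of 0.71 over 9474 genes. The likeness to Egln3 is looser than to the other members, and with 6 libraries such ranks are a description.

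Of 28 further genes of the HIF machinery, 25 were tested and 0 passed in either direction (limma). Their median log2 fold change was 0.004. At an unadjusted p under 0.05 there was 1 (4%, against 12.1% of all genes), and edgeR and DESeq2 called 0. The list holds partners of VHL in its ubiquitin ligase, coactivators, CITED proteins, SIAH ligases, other stability factors and the iron regulatory proteins Aco1 and Ireb2. Cited2, which competes with the alpha subunits for the coactivators and is induced by them, had 12.3, 9.38 and 12.9 CPM in controls and 8.06, 6.78 and 8.46 CPM on high iron. The groups do not overlap, but its log2 fold change of -0.51 did not pass (limma adjusted p = 0.369). For Elob, a subunit of the VHL ligase, it was -0.52 (adjusted p = 0.480), and for P4htm, a transmembrane prolyl hydroxylase, -0.49 (adjusted p = 0.485). P4htm is a low gene, with 0.825 to 2.70 CPM from 14 to 52 reads, and its edgeR log2 fold change was -0.91. Its groups do not overlap either. In the list, 1 gene was higher and 2 were lower without overlap, against 9.46% and 8.44% of all genes. Hif3a, a further alpha subunit, had at most 0.232 CPM in any library and was not tested, as were Arnt2 and Cited4.

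HIF target genes are known outputs of the pathway. Of 48 listed, 38 were tested, 2 rose and 0 fell (limma), against 0.832% called higher and 0.193% lower over all genes. The list's median log2 fold change was 0.08, and 7 (18.4%) had an unadjusted p under 0.05, against 12.1% of all genes. The 2 that rose were Hmox1, which encodes the heme-degrading enzyme heme oxygenase 1, and Aldoa, a glycolytic aldolase. Hmox1 had 68.5, 123 and 90.5 CPM in controls and 650, 629 and 928 CPM on high iron, a log2 fold change of 2.97 ± 0.22 (SE; limma adjusted p = 3.26e-04). The gene is also a well-known target of NRF2 and BACH1. Aldoa had 251, 301 and 275 CPM in controls and 569, 501 and 555 CPM on high iron, a log2 fold change of 0.97 ± 0.13 (SE; limma adjusted p = 0.00969). Its call was lost without high-iron replicate 1 (adjusted p = 0.0535) and without high-iron replicate 3 (0.102).

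Of the 14 tested genes of glycolysis and glucose uptake, 7 had a positive and 7 a negative log2 fold change, and Aldoa was the 1 that passed. Their log2 fold changes ran from -0.53 to 0.97, and 3 were higher and 0 lower without overlap. Ldha, lactate dehydrogenase, had 195, 171 and 185 CPM in controls and 167, 183 and 190 CPM on high iron, and Pdk1 and Slc2a1 had log2 fold changes of -0.15 and -0.002. These 3 genes were picked with their values in view, and Slc2a1 lies near the filter of 1 CPM, with 1.44 to 2.57 CPM. Of the 7 tested vascular signals, whose log2 fold changes ran from -1.23 to 0.42, Flt1 was not the lowest. Flt1, a VEGF receptor, had 565, 553 and 832 CPM in controls and 370, 340 and 350 CPM on high iron. Its groups do not overlap, control replicate 3 is highest as for Epas1, and its log2 fold change of -0.85 ± 0.17 (SE) narrowly missed the threshold (limma adjusted p = 0.0549, DESeq2 4.84e-04). It passed with plain library size (0.0442) and without control replicate 1 (0.0366), and the adjusted p reached 0.275 without high-iron replicate 3. Ndrg1, induced by hypoxia in many cells, had 150, 161 and 227 CPM in controls and 132, 73.3 and 91.5 CPM on high iron, with a log2 fold change of -0.87 (limma adjusted p = 0.134, DESeq2 0.0196). DESeq2 called 4 genes of the list, these and the 2 that rose, and edgeR 2. Among the 12980 genes tested, DESeq2 called 424 and edgeR 112. By role, 0 of 5 tested genes of mitophagy and survival, 0 of 5 of matrix and secretion and 0 of 7 vascular signals passed with limma. Over the whole list, 21 log2 fold changes were positive and 17 negative. The diets did not overlap for 7 genes that were higher and 2 that were lower on high iron, against 9.46% and 8.44% of all genes. The 7 were Hmox1, Aldoa, Pfkfb3, Mxi1, Tfrc, Gbe1 and Ero1l, and the 2 were Flt1 and Ndrg1. Pfkfb3, a regulator of glycolysis, had 35.1, 32.1 and 33.1 CPM in controls and 42.9, 63.3 and 47.0 CPM on high iron, a log2 fold change of 0.58 (limma adjusted p = 0.189). Mxi1, a MYC antagonist, had a value of 0.50 on that scale (adjusted p = 0.265) and Tfrc, the transferrin receptor, 0.56 (adjusted p = 0.416).

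Of 13 genes known to respond chiefly to HIF-2, 10 were tested, 1 rose and 0 fell (limma). Over all genes tested, 0.832% were called higher and 0.193% lower. The list's median log2 fold change was -0.04, and 2 genes (20%) had an unadjusted p under 0.05, against 12.1% of all genes. The 1 that rose was Slc40a1, which encodes the iron exporter ferroportin. It had 477, 520 and 454 CPM in controls and 1452, 1598 and 2028 CPM on high iron, a log2 fold change of 1.79 ± 0.16 (SE; limma adjusted p = 8.85e-04). Slc40a1 is also known as an NRF2 and BACH1 target. The 5 endothelial genes of the list, Kdr, Tek, Cdh5, Dll4 and Angpt2, had log2 fold changes between -0.33 and 0.05, and 0 passed. Over the whole list, 2 genes were higher and 1 was lower without overlap between diets, against 9.46% and 8.44% of all genes. For Tgfa, a growth factor, the log2 fold change was 0.86 (limma adjusted p = 0.180). DESeq2 called the gene (0.0246), its other call in the list being Slc40a1, and called 424 of the 12980 genes tested. Macrophage markers were higher in the high-iron libraries, as given above, and their part in the values of Hmox1 and Slc40a1 was not tested.

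Other enzymes that use iron and 2-oxoglutarate were listed to set the hydroxylases beside their family, which includes collagen hydroxylases, TET enzymes and histone demethylases. Of 45, 42 were tested and 0 passed in either direction (limma, edgeR and DESeq2). The median log2 fold change was 0.03, and 2 genes (4.76%) were at an unadjusted p under 0.05, against 12.1% of all genes. The 3 with the smallest p were Tet2 (-0.46, limma adjusted p = 0.365), Asph (-0.38, 0.393) and Tet3 (-0.30, 0.461). Tet2 and Tet3 oxidise methylated cytosine in DNA, and Asph hydroxylates aspartate and asparagine of secreted proteins. The log2 fold changes of the 42 ran from -0.51 to 0.39. Without overlap between diets, 0 were higher and 3 lower on high iron, against 9.46% and 8.44% of all genes.

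**Figure D4:**
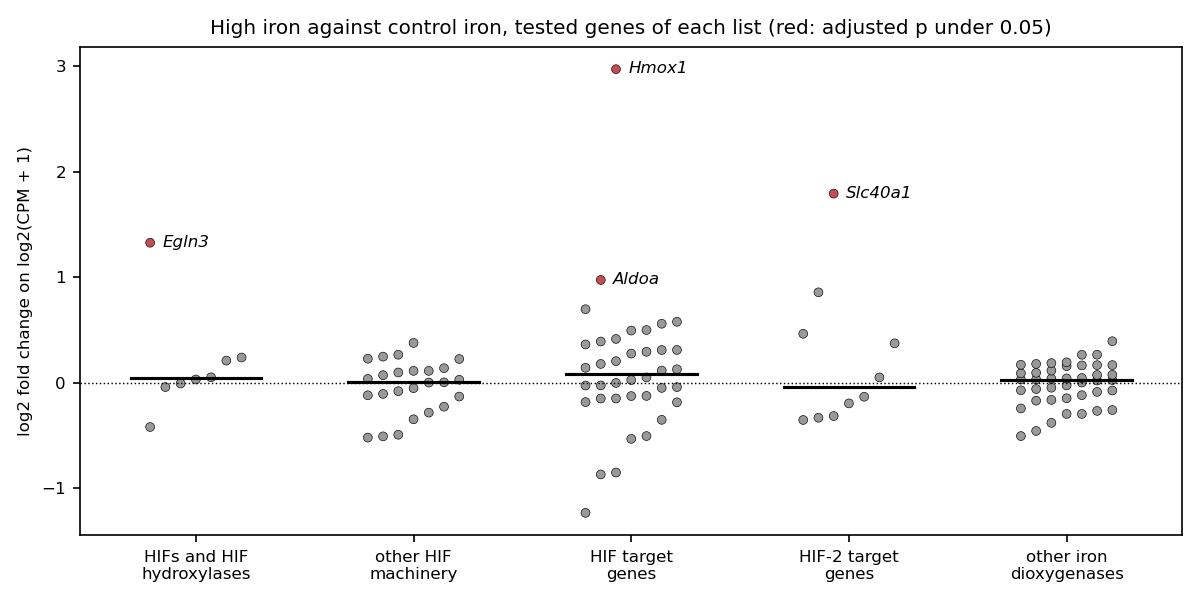
Log2 fold change of high iron against control iron on log2(CPM + 1) for the tested genes of 5 lists, 1 point per gene, with a black line at each median. Red points passed the limma threshold: Egln3, Hmox1, Aldoa and Slc40a1 are named, and the medians lie between -0.04 and 0.08.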

How the data were processed

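Values came from 2 tables that the authors deposited. The first, headed CPM, is a signal per gene that the authors obtained by dividing its reads by a TMM-scaled library size, so its column totals differ. The second holds RPKM, which in the deposited files equals CPM per kilobase of gene length. STAR, HTSeq and edgeR with build mm10 are listed in the submitters' processing notes. Their versions and settings are not stated there. The library kit does not mark strand, so antisense reads cannot be told apart. All 114253 values above 0 were whole multiples of 1 read within 0.01 read (100%), which gave the reads per gene and depths of 12963510 to 21663543. Their counting error is small except for low genes.

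Genes with at least 1 CPM in at least 3 of 6 libraries were tested on log2(CPM + 1) in R 4.3.3 using limma 3.58.1, with diet as the sole term, a trend in the variance and Benjamini-Hochberg adjustment. Shares were compared with exact permutation tests. edgeR 4.0.16 and DESeq2 1.42.0 on recovered reads, other pseudocounts, filters and scalings, a replicate block and leaving out each library were alternatives. All 194 listed symbols were found, 10 through the Ensembl ID. The 8 genes and the lists were chosen with earlier results of these data known. Named genes are the 8, each list's called genes or else the 3 with the smallest p, and the 3 most similar genes with a mean of at least 5 CPM and an established symbol for Hif1a, Epas1 and Egln3; Ldha, Pdk1, Slc2a1, Pfkfb3, Mxi1, Tfrc, Gbe1, Ero1l, Flt1, Ndrg1, Tgfa and the endothelial HIF-2 targets were added after their values were seen. Positions and hairpins come from GENCODE M21 (GRCm38) and upstream sequence from RefSeq (GRCm38.p6). The fits were tested on simulated data. Only genes above a minimum mean level were changed there, so that test says little of low genes such as Egln3.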

Additional observations from a re-analysis of the deposited data

How the results depend on the processing

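Over all genes, 133 were called, against 34 with no filter on low values, 424 with DESeq2, 402 with the replicate block, and 26 to 183 when 1 library was left out. Of the 8 genes, 1 was called (Egln3), against 0 with no filter, 0 with a minimum of 5 CPM, which Egln3 does not reach, and 0 when any 1 library was left out. HIF target genes called numbered 2, against 4 with DESeq2, 4 with the replicate block and 1 to 3 when 1 library was left out. HIF-2 target genes called numbered 1, against 2 with DESeq2 and 2 with the replicate block. The block changed no other count of the report by over 1.5 times. With the block, the limma adjusted p of Egln3 was 0.00873. That fit used the same filter, which Egln3 passed only through its high-iron libraries, so the value is not independent support. The sample labels give only a number, and whether same-numbered libraries share a factor was not tested. Correlations between control and high-iron libraries were taken on each gene's deviation from the mean of its diet on log2(CPM + 1), not on levels. Those of same-numbered libraries were 0.128, 0.320 and 0.0625, and those of differently numbered ones ran from -0.388 to 0.198. The deviations sum to 0 within a diet, so these values are not independent of each other. When 1 library was left out, the log2 fold change changed sign for Hif1a (-0.15 to 0.17), Arnt (-0.111 to 0.0733), Egln2 (-0.0828 to 0.114) and Hif1an (-0.10 to 0.17). Epas1, Egln1, Egln3 and Vhl kept their direction in every alternative that could be run. A filter on mean CPM and leaving out libraries with the tested genes held fixed were chosen after seeing the data. The cause was not tested. Depth limits Egln3, with 9 to 66 reads per library.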
